A study of Mus musculus with 11 samples.

Results

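Messenger RNA of 5 genes of costimulation and leukocyte adhesion (cd40, cd80, cd86, Icam1 and cd18) was measured in mouse spleen. They were taken by their names and are 5 of the 93 genes on a custom NanoString nCounter panel, which counts one color-coded probe per RNA molecule without amplification. Spleens of 11 female mice were measured with 50 ng of RNA each. The labels give spleen as the source, and the study speaks of all spleen cells for the Mrl mice. The study asked whether cGAS, a sensor of cytosolic DNA, contributes to lupus in autoimmune-prone mice. The group WT/Mrl (n = 3) has intact cGAS on the MRL background and carries the Fas lpr mutation of the death receptor Fas. The group cGAS/Mrl (n = 4) shares that background and mutation and lacks cGAS, which was removed by CRISPR editing directly in the strain. The sample labels of these mice write neither Fas lpr nor the knockout, and both were taken from the methods of the study. WT/B6 (n = 1) and cGAS KO/B6 (n = 1) are uninjected C57BL/6 mice with and without cGAS, and neither has a replicate. A further group of WT/B6 mice (n = 2) received DMXAA, an agonist of mouse STING, which is the adaptor downstream of cGAS. The dose, the time after injection and the ages of the mice are not given in the labels.

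CD40 is a receptor of the TNF receptor family on B cells, dendritic cells and macrophages, and its ligand on T cells drives their activation. CD80 and CD86 on antigen-presenting cells bind CD28, which costimulates T cells, and CTLA-4, which restrains them. ICAM-1 is the adhesion molecule on endothelium and leukocytes that binds LFA-1, and CD18 (gene Itgb2) is the beta chain that LFA-1 shares with the other β2 integrins. Several of these genes are known to be induced through NF-κB or by interferons in antigen-presenting cells.

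The deposited signal was the count of each gene multiplied by a single factor per mouse, and the counts were read back from it. They summed to 28406, 50223 and 58404 over the panel in the WT/Mrl mice and to 41885, 57548, 43164 and 47134 in the cGAS/Mrl mice. The totals were 3612 in the WT/B6 and 12386 in the cGAS KO/B6 mouse, and after DMXAA they were 647148 and 600677. The uninjected B6 mice were therefore measured with the fewest counts. The factor, which carries the authors' normalization to housekeeping genes, was 0.0823 in the WT/B6 and 0.297 in the cGAS KO/B6 mouse. It was 0.670 to 1.36 in the Mrl mice, and 1.61 and 1.64 after DMXAA. It was thus smallest where the counts were lowest, so the deposited signal widens the gap between these mice. Whether the totals differ by the RNA measured or by expression was not tested. Of the 5 genes, cd80 (12) and Icam1 (19) had counts under 20 in the WT/B6 mouse and cd18 (16) had one in the cGAS KO/B6 mouse, while none did in the other 9 mice. Background probes were not analysed here, so a count this low may include background. Each count is given below relative to the median count of the 93 genes of the same mouse, because the panel as a whole differed between mice. A change shared by most of the panel is not seen on this scale. How well each probe captures its RNA is not known, so levels are compared between mice and not between genes.

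cd40 stood at 2.32, 1.99 and 1.77 times the panel median in the WT/Mrl mice. It stood at 1.09, 2.67, 3.06 and 1.85 times the median in the cGAS/Mrl mice. The values were 1.48 in the WT/B6 mouse, 2.17 in the cGAS KO/B6 mouse, and after DMXAA 5.59 and 5.14. Both DMXAA-injected mice lay above all other mice. The 2 Mrl genotypes overlapped, and the cGAS KO/B6 mouse lay within the range of each. The WT/B6 mouse lay below it and below each WT/Mrl mouse, but within the range of the cGAS/Mrl mice. cGAS/Mrl mouse 1 was the lowest of the 11.

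cd80 showed the widest range of the 5 genes on the log2 scale. It stood at 1.40, 1.93 and 1.93 times the panel median in the WT/Mrl mice and at 1.99, 1.65, 1.34 and 1.58 in the cGAS/Mrl mice. It was 0.571 in the WT/B6 mouse, where it rests on 12 counts, 1.58 in the cGAS KO/B6 mouse, and after DMXAA 0.147 and 0.114. The DMXAA-injected mice were the lowest of all, the WT/B6 mouse was next, and the cGAS KO/B6 mouse lay among the Mrl mice. cd80 was counted 100 and 69 times in the DMXAA-injected mice, and the background share of these counts was not analysed.

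cd86, the other ligand of CD28, stood at 4.33, 4.34 and 3.94 times the panel median in the WT/Mrl mice. It stood at 2.67, 4.76, 5.20 and 4.57 in the cGAS/Mrl mice, where mouse 1 was again the lowest. It was 1.86 in the WT/B6 mouse, 3.06 in the cGAS KO/B6 mouse, and after DMXAA 1.73 and 1.31. The Mrl genotypes overlapped, and the WT/B6 and DMXAA-injected mice lay below every Mrl mouse.

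Icam1 varied little within groups. It stood at 1.94, 2.11 and 2.05 times the panel median in the WT/Mrl mice and at 1.86, 1.98, 1.76 and 2.31 in the cGAS/Mrl mice. It was 0.905 in the WT/B6 mouse, 0.722 in the cGAS KO/B6 mouse, and after DMXAA 1.78 and 1.75. Both uninjected B6 mice lay below all the others, and the DMXAA-injected mice overlapped with the Mrl mice.

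cd18 was itself the median gene of the panel in 4 of the 7 Mrl mice. Its values were 0.943, 1 and 1.06 in the WT/Mrl mice and 1, 1, 1 and 1.01 in the cGAS/Mrl mice, so that its small spread there is in part set by the scale. It was 1.24 in the WT/B6 mouse, 0.444 in the cGAS KO/B6 mouse, and after DMXAA 0.471 and 0.603. The uninjected B6 mice lay on opposite sides of the Mrl mice.

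**Figure D1:**
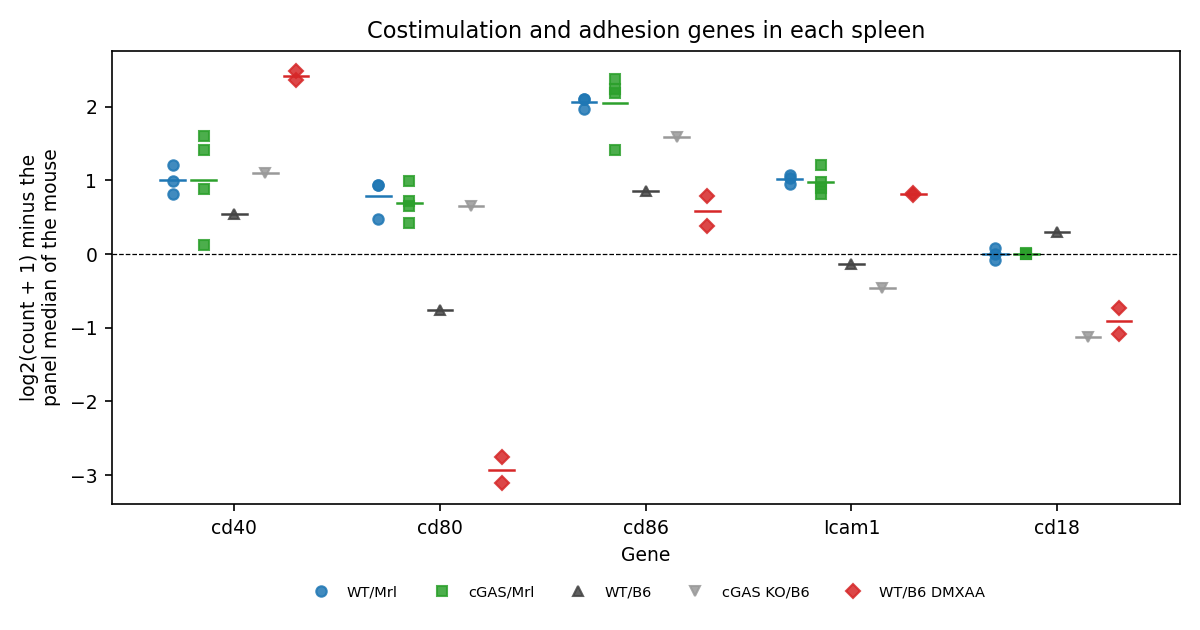
Levels of the 5 genes in each of the 11 spleens, as log2(count + 1) minus the panel median of the same mouse (vertical axis), by gene (horizontal axis) and group (colour and symbol). Points are mice, short lines are group means, and the dashed line is the panel median. The DMXAA-injected mice are highest for cd40 and lowest for cd80 on this scale.

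The Mrl genotypes were compared to ask whether loss of cGAS alters these genes in autoimmune-prone mice. None of the 5 genes differed between cGAS/Mrl and WT/Mrl mice in the limma fit, where 0% of the 93 genes were called. The log2 difference was 0.0025 for cd40 (95% confidence interval -0.74 to 0.74) and -0.09 for cd80 (-0.50 to 0.32). It was -0.0093 for cd86 (-0.52 to 0.50), -0.05 for Icam1 (-0.35 to 0.26) and 0.0050 for cd18 (-0.25 to 0.26). The adjusted p was 0.997 for each. At an unadjusted p under 0.05, limma called 1 gene of the panel and 0 of these 5, and voom called 0 genes at the adjusted threshold. An exact two-sided Mann-Whitney test gave p = 0.857 for cd40 and cd80, 0.400 for cd86, 0.629 for Icam1 and 1 for cd18, and 3 mice against 4 cannot give a p below 0.0571. A p above the threshold does not show that the genotypes are alike, and the interval of cd40 is the widest of the 5. cGAS is not on the panel, so its loss was not checked in these counts.

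The DMXAA-injected mice were compared with the 7 Mrl mice, a contrast that does not use the lone low-count mice as either side. The 2 sides differ in strain and in Fas lpr as well as in the injection, and these cannot be told apart here. Of the 7 Mrl mice, 4 also lack cGAS. cd40 was higher and cd80, cd86 and cd18 were lower in the DMXAA-injected mice on the main scale, while Icam1 was not called on it. limma called 1 of the 5 genes higher, against 33.3% of the panel, and 3 lower, against 55.9%, so the share called is close to that of the panel and says little by itself. cd40 was higher by 1.41 on the log2 scale (SE 0.33, adjusted p = 0.00205 from limma), or 2.67-fold. cd80 was lower by 3.68 (SE 0.19, adjusted p = 2.88e-08 from limma), or 12.8-fold. cd86 was lower by 1.47 (SE 0.24, adjusted p = 1.59e-04 from limma) and cd18 by 0.91 (SE 0.12, adjusted p = 5.12e-05 from limma). The log2 difference of Icam1 was -0.18 (SE 0.13, adjusted p = 0.218 from limma). Against the WT/Mrl mice alone, cd40 was at 1.42, cd80 at -3.72, cd86 at -1.48, cd18 at -0.90 and Icam1 at -0.20. The median gene of the panel moved by -0.81 on this scale, -0.12 after median-of-ratios scaling and 1.84 on the deposited scale, so a size is best read against that shift. These scales shift all genes of a mouse alike, so the place of a gene relative to the median gene hardly depends on them. On the main scale cd40 (2.22) and Icam1 (0.63) lay above the median gene, and cd80 (-2.87), cd86 (-0.67) and cd18 (-0.10) below it. The calls against 0 do depend on the scale. Icam1 was called higher after median-of-ratios scaling (0.51, adjusted p = 0.0048 from limma), with voom (0.52, adjusted p = 9.1e-04) and on the deposited scale (2.47). cd18 was no longer called after median-of-ratios scaling or with voom (-0.21 in both) and was called higher on the deposited scale (1.74), where cd86 was at 1.17 and neither cd86 nor cd80 (-1.04) was called. The panel split of 31 genes higher and 52 lower became 39 and 42 with median-of-ratios scaling, 40 and 43 with voom, and 54 and 5 on the deposited scale. In RNA of a whole organ or of all its cells, fewer cells of a type and less RNA per cell cannot be told apart. None of the marker genes looked for (B cell, T cell, myeloid, plasmacytoid dendritic, plasma cell, endothelial and stromal) is on the panel, so the tissue and its cell composition were not checked with them. 2 other panel genes, chosen after their values were seen, are known from plasma cells (prdm1) and stromal cells (mmp2) but are not confined to them. On the main scale prdm1 was lower by 2.74 and mmp2 by 5.25 in the DMXAA-injected than in the Mrl mice. In DMXAA-injected mice minus the WT/B6 mouse, prdm1 was at -3.43 and mmp2 at -5.05. In Mrl minus uninjected B6 mice, prdm1 was at -0.96 and mmp2 at 0.71. The part of prdm1 and mmp2 in the values of the 5 genes was not tested.

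Mrl mice were compared with the uninjected B6 mice, which do not develop lupus spontaneously. Strain and Fas lpr differ together here. Icam1 was higher in the Mrl mice against either B6 mouse. The log2 difference was 1.29 (95% confidence interval 1.00 to 1.58), or 2.45-fold, and it was 1.45 without the WT/B6 mouse and 1.13 without the cGAS KO/B6 mouse. limma called 4 of the 5 genes higher, where 28% of the panel was called, and 0 lower, where 40.9% was called. The adjusted p-values are not given, and the interval is too narrow, because limma lends the spread of the deeper mice to the lone B6 mice and made too many calls of unchanged genes when it was tested on simulated data at these depths. voom, which weights low counts less, made fewer such calls but still too many, so its p-values are read with the same caution. It called Icam1 (1.42, adjusted p = 1.74e-04), cd86 (0.95, adjusted p = 0.00511) and cd80 (0.93, adjusted p = 0.0209), and did not call cd18 (0.55, adjusted p = 0.0854) or cd40 (0.30, adjusted p = 0.448). cd80 and cd86 depended on the WT/B6 mouse, falling from log2 differences of 0.80 and 0.83 to 0.09 and 0.47 without it. cd18 changed direction with the control, at 0.42 with both B6 mice, 1.12 without the WT/B6 mouse and -0.29 without the cGAS KO/B6 mouse. cd40, at 0.19, was at -0.09 without the WT/B6 mouse. On the deposited scale, all 93 genes were called higher, with a median difference of 4.84, in place of 26 higher and 38 lower at a median of -0.07.

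DMXAA-injected mice were also compared with the WT/B6 mouse, their uninjected control. This comparison and the preceding one share that mouse, so that its low counts enter both. cd40 and Icam1 were higher after DMXAA, and cd80 and cd18 were lower, on the main scale. The log2 difference was 1.88 for cd40 (95% confidence interval 0.77 to 2.99), 0.96 for Icam1 (0.52 to 1.40), -2.18 for cd80 (-2.82 to -1.53), -1.20 for cd18 (-1.62 to -0.78) and -0.28 for cd86 (-1.08 to 0.53). limma called 2 of the 5 genes higher, against 37.6% of the panel, and 2 lower, against 50.5%. These calls and intervals rest on 1 control mouse with 3612 counts and are too favourable, and for this comparison the same held for voom, so no p is given. With the cGAS KO/B6 mouse as the control, an alternative chosen after the data were seen, cd40 was at 1.33, Icam1 at 1.28, cd80 at -3.58 and cd86 at -0.999, where cd86 was called lower, while cd18 turned to 0.22 and was not called. With voom cd18 was at -0.66 and was no longer called. The direction of cd80 and cd18 depended on the scale. On the deposited scale, normalized to housekeeping genes, all 93 genes were higher, cd80 and cd18 among them. The median there was 7.87, against -0.93 on the main scale. cd80 (6.10) and cd18 (7.47) lay below the median of the deposited scale and cd86 (8.54) above it, as on the main scale.

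The last comparison asked whether the difference between mice without and with cGAS was the same on the Mrl and B6 backgrounds. limma called this contrast for cd18 and cd80, but the B6 side of it is 1 mouse against 1 mouse, so the call has no replication there and is given as a description. The difference between cGAS KO/B6 and WT/B6 was -1.42 for cd18 and 1.41 for cd80 on the log2 scale, beside 0.0050 and -0.09 in the Mrl mice. The contrast was 1.42 for cd18 and -1.50 for cd80, and it was -0.55 for cd40, -0.73 for cd86 and 0.27 for Icam1, which were not called. limma called 1 of the 5 genes higher, against 5.38% of the panel, and 1 lower, against 28%. Each B6 genotype is a single mouse, and the counts behind these values were 26 and 16 for cd18 and 12 and 57 for cd80, so that genotype and mouse cannot be told apart. The adjusted p-values of both tools are too small here as well. voom called cd18 (2.03, adjusted p = 0.0201) and did not call cd80 (-0.97, adjusted p = 0.298). With median-of-ratios scaling cd80 (-0.99) was not called either, and Icam1 (0.83) was called higher. On the deposited scale cd18 was at -0.79, above the panel median there, and was not called, while cd86 (-2.93) was called lower. The panel split of 5 genes higher and 26 lower at a median of -0.25 became 17 and 12 at 0.30 with median-of-ratios scaling, 4 and 8 at 0.31 with voom, and 0 and 29 at -2.01 on the deposited scale.

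Ratios of a pair of genes within a mouse do not depend on how the mouse was scaled. The ratio of cd80 to cd86 counts was 0.322, 0.444 and 0.489 in the WT/Mrl mice and 0.744, 0.346, 0.257 and 0.346 in the cGAS/Mrl mice. It was 0.308 in the WT/B6 mouse (95% exact binomial interval 0.147 to 0.600) and 0.518 in the cGAS KO/B6 mouse (0.370 to 0.720). In the DMXAA-injected mice it was 0.0850 (0.0686 to 0.104) and 0.0873 (0.0673 to 0.112), below every other mouse, with intervals that do not reach those of the other 9. The intervals cover counting error only. The ratio was 4.63-fold lower in the DMXAA-injected than in the Mrl mice, a log2 difference of -2.21 (exact two-sided permutation p = 0.0556, adjusted p = 0.111 over 6 tests). That is the smallest p that 2 mice against 7 can give. Between cGAS/Mrl and WT/Mrl the log2 difference was -0.08 (exact permutation p = 0.857), and between Mrl and uninjected B6 mice it was -0.0024 (exact permutation p = 0.944). Against the WT/B6 mouse, the mean log2 ratio after DMXAA was lower by a difference of -1.84. That size depends on the control. The mean was -3.54 after DMXAA, beside -1.70 in the WT/B6 mouse and -0.95 in the cGAS KO/B6 mouse.

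The ratio of Icam1 to cd18 counts, a ligand and a chain of its integrin receptors, was 2.06, 2.11 and 1.94 in the WT/Mrl mice. It was 1.86, 1.98, 1.76 and 2.28 in the cGAS/Mrl mice. It was 0.731 in the WT/B6 mouse (0.382 to 1.37), 1.62 in the cGAS KO/B6 mouse (0.839 to 3.24), and after DMXAA 3.78 (3.34 to 4.29) and 2.90 (2.58 to 3.28). The 2 Mrl genotypes overlapped. The uninjected B6 mice lay below all Mrl mice and the DMXAA-injected mice above them, although the interval of the cGAS KO/B6 mouse covers all Mrl values. It also covers the 2.90 of DMXAA-injected mouse 2. The interval of that mouse overlaps those of WT/Mrl mouse 1 (1.61 to 2.64) and cGAS/Mrl mouse 4 (1.90 to 2.75). The log2 difference was 0.87 between Mrl and uninjected B6 mice and 0.73 between DMXAA-injected and Mrl mice. Each gave an exact two-sided permutation p = 0.0556, the smallest possible, and an adjusted p of 0.111. The 0.87 depended on the B6 mouse, at 0.29 without the WT/B6 mouse and 1.45 without the cGAS KO/B6 mouse. Between cGAS/Mrl and WT/Mrl mice it was -0.05 (exact permutation p = 0.629, adjusted p = 0.943). Against the WT/B6 mouse, the log2 ratio was higher after DMXAA by 2.18. This size depends on the control. The mean log2 ratio was 1.73 after DMXAA, beside -0.45 in the WT/B6 mouse and 0.70 in the cGAS KO/B6 mouse. The contrast of the cGAS difference between backgrounds was -1.21 for this ratio and -0.84 for cd80 to cd86, with no test.

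**Figure D2:**
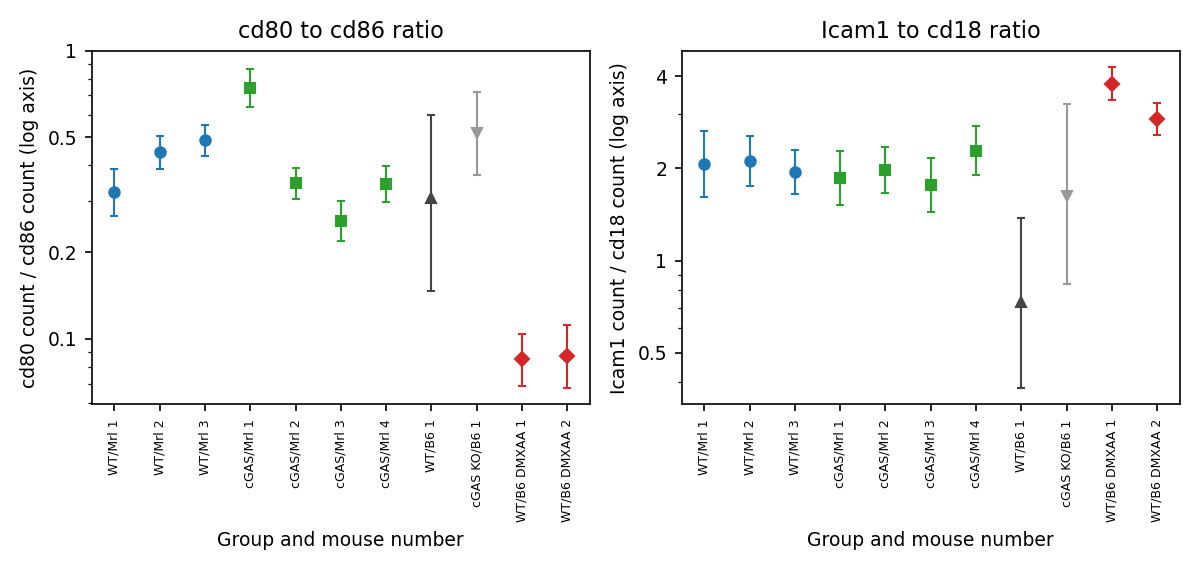
Ratio of cd80 to cd86 counts (left) and of Icam1 to cd18 counts (right) in each mouse, on log axes, with 95% exact binomial intervals of the counts as bars. The DMXAA-injected mice lie below all others at left, at 0.0850 and 0.0873, and above all others at right, at 3.78 and 2.90. At right, the interval of DMXAA-injected mouse 2 overlaps those of WT/Mrl mouse 1, cGAS/Mrl mouse 4 and the cGAS KO/B6 mouse.

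The makeup of the summed count of the 5 genes showed the same contrast without any scaling between mice. cd40 made up 21.2%, 17.5% and 16.4% of it in the WT/Mrl mice and 12.7%, 22.1%, 24.7% and 16.3% in the cGAS/Mrl mice. It made up 24.4% (95% exact binomial interval 17.2 to 32.8) in the WT/B6 mouse, 27.2% (22.1 to 32.7) in the cGAS KO/B6 mouse, and after DMXAA 57.5% (56.3 to 58.7) and 57.7% (56.3 to 59.0). cd80 made up 9.45% (4.98 to 15.9) in the WT/B6 mouse, 19.9% (15.4 to 24.95) in the cGAS KO/B6 mouse and 1.51% (1.23 to 1.84) and 1.28% (0.996 to 1.62) in the DMXAA-injected mice, and 10.8% to 23.1% in the Mrl mice. The share of cd40 was higher in both DMXAA-injected mice than in any other mouse. The shares are parts of the same sum, so a larger share of cd40 lowers the other shares by itself. They restate the same counts and are not separate evidence. cGAS/Mrl mouse 1 had the smallest share of cd40 and the largest share of cd80 among the 11. The ratio of cd40 to cd80 counts was 38.0 and 45.1 after DMXAA, 2.58 in the WT/B6 mouse and 1.37 in the cGAS KO/B6 mouse.

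**Figure D3:**
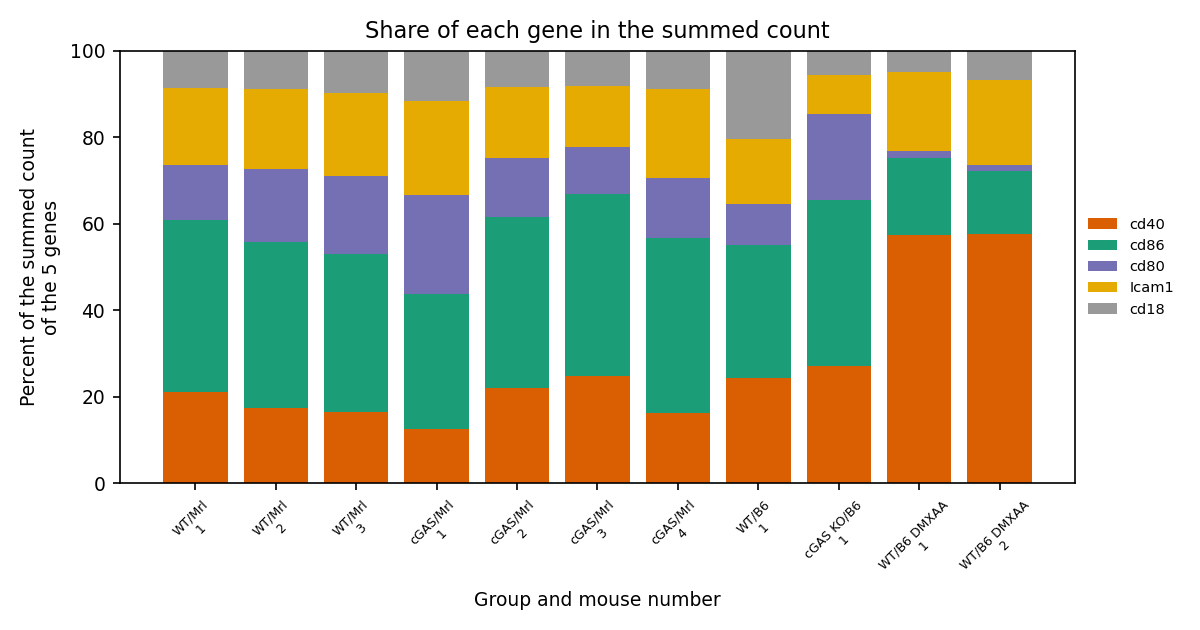
Percent of the summed count of the 5 genes taken by each gene (vertical axis) in each mouse (horizontal axis). cd40 takes 57.5% and 57.7% in the DMXAA-injected mice and 12.7% to 27.2% in the others.

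How alike the 5 genes were over the 11 mice differed from pair to pair. The likeness of a pair was measured as the root mean square difference of their log2 values, each centred on its own mean. The closest pair of members was Icam1 and cd18 (0.553), and the farthest was cd40 and cd80 (2.00), which lay on opposite sides of the other mice after DMXAA. The panel genes closest to cd40 were Ifi205 (0.378) and trex1 (0.405), and the one closest to cd80 was duba (0.372). cd86 was closest to md2 (0.299) and tlr7 (0.398), Icam1 to tlr4 (0.330) and adar (0.347), and cd18 to rybp (0.277) and tlr7 (0.315). With 11 mice in 5 groups, these values mostly describe the group means.

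Genes of related pathways on the panel are given for comparison, as counts from the limma fit. Of 8 genes of the NF-κB pathway, 3 were higher and 4 lower in DMXAA-injected than in Mrl mice, with a median log2 difference of -0.93 beside -0.81 over the panel, where 33.3% were higher and 55.9% lower. Of 17 interferon-stimulated genes, 8 were higher and 8 lower (median -0.36), and of 8 cytokine genes (interferons, the Il12 family, Il15 and Il-18), 3 were higher and 4 lower (median -0.42). Between Mrl and uninjected B6 mice, 12 of the 17 interferon-stimulated genes were higher and 2 lower (median 0.85, beside -0.07 over the panel and 0.80 over the 5 costimulation and adhesion genes), against 28% and 40.9% of the panel. Without the WT/B6 mouse, 7 of the 17 were higher and 3 lower, against 20.4% and 40.9% of the panel. With both B6 mice, 1 NF-κB gene was higher and 2 lower (median 0.0093), and 0 of the 8 cytokine genes were higher and 7 lower (median -1.33). The balance of the NF-κB genes turned with the B6 mouse that was left out, as given below. After DMXAA against the WT/B6 mouse, 12 interferon-stimulated genes were higher and 1 lower (median 1.88, beside -0.93 over the panel), against 37.6% and 50.5% of the panel. There 3 NF-κB genes were higher and 4 lower (median -0.49), and 3 cytokine genes were higher and 5 lower (median -2.38). With the cGAS KO/B6 mouse as the control, more interferon-stimulated genes were lower after DMXAA, as given below. In the contrast of the cGAS difference between backgrounds, 1 interferon-stimulated gene was higher and 10 lower (median -0.80, beside -0.25 over the panel), against 5.38% and 28% of the panel. In it 0 NF-κB genes were higher and 6 lower (median -1.64), and 0 of the 8 cytokine genes were called (median 0.24). With median-of-ratios scaling, 6 interferon-stimulated and 5 NF-κB genes were lower there, of 12 on the panel, and with voom 4 and 4, of 8. Between cGAS/Mrl and WT/Mrl mice, 0 genes of any list were called. The interferon-stimulated list does not hold all such genes of the panel. With mda5, lgp2, oas2 and Ifi205 added, after their values were seen, 12 of 21 were higher and 8 lower between DMXAA-injected and Mrl mice (median 1.30), and 12 higher and 3 lower between Mrl and uninjected B6 mice (median 0.62). Then 15 were higher and 1 lower against the WT/B6 mouse (median 1.59), and 1 higher and 10 lower in the contrast (median -0.63). Of 14 antigen presentation genes looked for, 1 is on the panel, nlrc5, a transactivator of class I genes that is also counted among the 17. It was higher in Mrl than in uninjected B6 mice (1.08) and lower in DMXAA-injected than in Mrl mice (-1.92) and in the contrast between backgrounds (-1.86), and it was not called against the WT/B6 mouse (0.18). Of 24 other costimulatory, coinhibitory and adhesion genes looked for, 0 are on the panel. The calls against uninjected B6 mice and in the contrast between backgrounds rest on the 2 lone B6 mice and carry the same limit as those of the 5 genes.

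All 5 genes matched the RefSeq gene table, cd18 through the older name of Itgb2, and 2 of them, Cd80 and Icam1, matched its promoter table. These 2 promoters are printed for that reason (RefSeq, GRCm38.p6), 250 bases before to 50 after the gene start, on the + strand. Cd40, Cd86 and Itgb2 are named only. Both strands were searched for GGAAATTCC (an NF-κB type site), TTCNNNGAA (a STAT type site), GAAANNGAA (an interferon response type site) and TATAAA, the box found in some core promoters. These are in 0.320%, 8.33%, 8.53% and 13.6% of the 32544 promoters of that length. Capitals mark the matches. Cd80 lies at chr16:38458683-38458982 and Icam1 at chr9:21015690-21015989.
Cd80: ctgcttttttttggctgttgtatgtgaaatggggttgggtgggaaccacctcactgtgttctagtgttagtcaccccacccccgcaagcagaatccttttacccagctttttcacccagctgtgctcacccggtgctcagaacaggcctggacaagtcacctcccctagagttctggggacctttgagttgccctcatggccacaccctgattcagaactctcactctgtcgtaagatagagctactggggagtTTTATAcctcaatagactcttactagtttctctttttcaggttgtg
Icam1: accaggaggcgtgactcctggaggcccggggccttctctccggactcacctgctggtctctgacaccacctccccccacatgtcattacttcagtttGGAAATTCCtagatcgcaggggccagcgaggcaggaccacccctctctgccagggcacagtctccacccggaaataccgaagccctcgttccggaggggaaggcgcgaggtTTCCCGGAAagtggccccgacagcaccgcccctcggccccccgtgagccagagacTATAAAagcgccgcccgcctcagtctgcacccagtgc
The Icam1 window held GGAAATTCC at -153 and TTCCCGGAA at -42 from the start, and TATAAA at 14 after it. The Cd80 window held a single match, TTTATA, the other strand of TATAAA, at 5 after the start. A match describes the letters of the window, and binding was not measured.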

How the data were processed

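RNA of 11 mouse spleens was counted by the authors with a custom nCounter probe set, and the deposited signal was normalized to housekeeping genes. All 1023 deposited values were whole multiples of 1 factor per mouse (tolerance 0.0001), which gave the counts. Background subtraction is not stated in the sources used here. Values were log2(count + 1) minus the panel median of the mouse. They were fitted with limma 3.58.1 under R 4.3.3, with two-sided p-values adjusted over 93 genes by Benjamini-Hochberg and a threshold of 0.05, over 7 mice for the Mrl genotypes and all 11 in 5 groups otherwise, where a lone mouse is assumed to vary like the others. On simulated data of equal depth, the fit called most of the larger changes made, and few of the smaller ones against the WT/B6 mouse alone and in the contrast between backgrounds. At the real depths its false calls were few between the Mrl genotypes and between DMXAA-injected and Mrl mice. They were too many in each comparison that uses the lone B6 mice, whose adjusted p is therefore too small. voom made fewer there, but still too many. The simulation gave all mice the mean profile of the Mrl mice, with the same added spread for all genes. Few genes were changed in it, as many up as down, so that the panel median stayed. The real median gene moved by -0.81 between DMXAA-injected and Mrl mice. The simulation therefore cannot show false calls that such a shift makes. Ratios were tested by exact permutation over mice with SciPy 1.17.1 (Python 3.11.15, NumPy 2.4.6, pandas 2.3.3), and figures drawn with Matplotlib 3.10.9. Genes named are the 5, the lists, and the 2 nearest panel genes of each, 1 of which is not reported here, and a few panel genes that the text marks as chosen after their values were seen. Genes and lists were chosen with earlier results of these data known. Replicates of a group differed by more than sampling noise (chi-square 2.91 to 27.1 times its degrees of freedom).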

Additional observations from a re-analysis of the deposited data

Results flagged for a closer look

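cd18 and cd80 were picked out because limma called the interaction term, the difference between mice without and with cGAS on the Mrl background minus that on B6, at 1.42 for cd18 and -1.50 for cd80 on the log2 scale. Each B6 genotype is 1 mouse, so the call has no replication on that side, limma's adjusted p is too small there, and the call of cd80 was lost with voom (-0.97) and with median-of-ratios scaling (-0.99). Whether genotype or mouse accounts for it cannot be told apart.

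cd18 in cGAS/Mrl mouse 4 stood far from the other mice of its group, with a gap of 1 times the range. The other 3 mice are exactly at 0, because cd18 is their median gene, so this gap follows from the scale. Chance alone marks about 1 in 20 such groups, and 7 values were looked at. The next widest gap, of cd86 in cGAS/Mrl mouse 1, was 0.806 of the range and did not pass Dixon's critical value.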

How the results depend on the processing

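Between cGAS/Mrl and WT/Mrl mice, 0 genes were called under all 18 alternatives, including the exact Mann-Whitney test, which could call none. The small differences crossed 0 in places. cd86 was at 0.069 and Icam1 at 0.031 on the deposited scale, and cd86 was at 0.020 with median-of-ratios scaling and 0.030 with voom. Leaving out each mouse in turn gave -0.20 to 0.30 for cd40, -0.25 to -1.8e-04 for cd80 and -0.12 to 0.20 for cd86. It gave -0.12 to 0.0054 for Icam1, -0.036 to 0.046 for cd18 and -0.40 to 0.12 for the cd80 to cd86 ratio. Same-numbered mice deviated together at correlations of -0.21, 0.25 and 0.08, which gives no pairing by number. A fit with the replicate block called 0 genes, and the ratios were -0.03 and -0.13.

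The deposited scale adds a shift common to all genes of a mouse, so a sign there says little by itself. For DMXAA against WT/B6, cd80 (6.10), cd86 (8.54) and cd18 (7.47) were above 0 on it, at a panel median of 7.87, cd18 lost its call with voom (-0.66), cd86 was at 0.27 with median-of-ratios scaling and 0.26 with voom, and with the cGAS KO/B6 mouse as control cd18 was at 0.22 and cd86 gained a call (-0.999). The Icam1 to cd18 ratio was at 2.01 with a pseudocount of 10, and at 1.99 to 2.37 with a DMXAA mouse left out. For Mrl against uninjected B6 mice, cd18 was at -0.30 with WT mice alone. With a mouse left out it ran from -0.29 to 1.12, cd40 from -0.089 to 0.47, the cd80 to cd86 ratio from -0.38 to 0.37 and the number of the 5 genes called from 2 to 4, beside 57 to 67 of the 93. For DMXAA against Mrl mice, cd86 (1.17), Icam1 (2.47) and cd18 (1.74) were above 0 on the deposited scale, at a panel median of 1.84, and Icam1 was called higher with median-of-ratios scaling (0.51) and voom (0.52). In the contrast between backgrounds, Icam1 (-1.74) and cd18 (-0.79) were below 0 on the deposited scale, at a panel median of -2.01, and cd40 was at 0.0097 with median-of-ratios scaling and 0.047 with voom. Median-of-ratios scaling ended the call of cd80 (-0.99) and gave one to Icam1 (0.83), and the deposited scale gave one to cd86 (-2.93). There voom called 12 genes in place of 31, and 1 of the 5 in place of 2, and the Icam1 to cd18 ratio was at -0.83 with a pseudocount of 10. Counts of the gene lists moved too. With median-of-ratios scaling or voom, 5 interferon-stimulated genes in place of 8 were lower for DMXAA against Mrl mice, and with the cGAS KO/B6 mouse as control 5 in place of 1 for DMXAA against WT/B6. For Mrl against uninjected B6 mice, the 1 NF-κB gene higher and 2 lower became 0 and 5 without the WT/B6 mouse and 4 and 1 without the cGAS KO/B6 mouse. These settings change the scale of a mouse, the weight of low counts or the mice used. Beyond that, the cause was not tested.

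Of the results for single genes, cd40 and Icam1 for DMXAA against WT/B6 kept direction and call under all 20 alternatives. So did Icam1 for Mrl against B6 and cd40 for DMXAA against Mrl mice. Some of these alternatives could not change the result, so the tally does not measure stability. Leaving out a mouse on neither side gave the same difference. The deposited scale called all 93 genes higher for DMXAA against WT/B6 and for Mrl against B6. The calls against uninjected B6 mice rest on the lone B6 mice and are too favourable. Leaving out a lone B6 mouse, or taking the cGAS KO/B6 mouse as control, was chosen after the data were seen. Low counts limit every comparison with the uninjected B6 mice, where 46 and 26 of the 93 genes had counts under 20.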
